A study of Rattus norvegicus with 6 samples.

Results

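Fatty acids are reshaped in the liver by enzymes of the endoplasmic reticulum and the peroxisome. Desaturases place double bonds, elongases start the addition of carbon units to the chain, and fatty acyl-CoA reductases turn acyl-CoA into the fatty alcohols of ether lipids and waxes. Dietary linoleic and alpha-linolenic acid become arachidonic acid and docosahexaenoic acid (DHA) by alternating steps of FADS2, ELOVL5, FADS1 and ELOVL2, and the genes of this route are known targets of SREBP-1c, a lipogenic transcription factor held in check by polyunsaturated fatty acids. The 10 genes described here are the desaturases Fads1, Fads2, Fads3 and Scd2, the elongases Elovl1, Elovl2, Elovl3 and Elovl5, and the reductases Far1 and Far2. They were taken by symbol from the 32930 gene rows of the deposited liver table, where each symbol had 1 row, and all 10 passed the expression filter that left 18455 genes to test. They were taken by name, with earlier results of these data known, and Far2 is labelled in the study's own volcano plot of these libraries.

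The comparison is of liver from 3 animals whose high-fat diet came with the vehicle (HFD group) with liver from 3 that ate this diet and received HTG, the herbal Huazhuo Tiaozhi granule (HTG group). The design text gives 12 weeks of intervention in both groups and 0.5% CMC-Na, the sodium carboxymethyl cellulose vehicle, in the HFD group. For its rats, the paper instead describes 12 weeks of high-fat diet, with gavage only in the later part of that time. There the drugs were also given in 0.5% CMC-Na. The titles read HTG, while the treatment label of the same libraries reads HCG. The labels name rats, the study's sequencing methods name C57BL/6 J mice, and the gene rows are mouse Ensembl genes, so the values below are those of mouse genes. No library came from an animal on a normal diet, and the sources used here describe the study's rats as male but give no age or sex for mice.

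The estimated counts summed to between 50648778 and 90563477 per library, and values of 4 were more frequent than values of 3 or 5. If a fragment is taken as 4 counts, a reading of these steps that not every low value follows, the depth was between 12662194 and 22640869 fragments. The 6 hepatocyte markers summed to between 74655 and 93756 CPM (counts relative to the TMM-scaled library total) in the HFD group and to between 66503 and 67841 CPM in the HTG group, without overlap. Alb makes up most of that sum and had an unadjusted p of 0.33 (edgeR), while Cps1, Tat and Apob were 3.07-, 2.49- and 2.06-fold lower at an unadjusted p under 0.05 and Ttr overlapped. The sums for macrophage, stellate, endothelial, cholangiocyte, lymphocyte, red cell and adipocyte markers overlapped between the groups, and the adipocyte marker Adipoq was at 0 in every library. Single markers in some of these lists still had an unadjusted p under 0.05 (edgeR). They were 2 of 6 macrophage markers, among them Adgre1 (2.88-fold lower), and 2 of 6 stellate markers, with Des higher and Reln lower. Further ones were 2 of 5 cholangiocyte markers, with Sox9 1.73-fold higher and Epcam lower, and 1 of 4 red cell markers, Alas2, which was lower. All marker counts are to be read against all genes tested, of which 12.3% were higher and 12.4% lower at that threshold. The mitochondrially encoded mRNAs took between 4.82% and 6.31% of the counts in the HFD group and between 9.12% and 14.9% in the HTG group. The part of these shifts in the results was not tested, and in whole liver fewer cells of a type and less RNA per cell cannot be told apart.

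The route to polyunsaturated fatty acids had the lower fitted level in the HTG group at each of its 4 genes. For Elovl5, Fads1 and Elovl2 the groups overlapped, with an unadjusted p of 0.0509, 0.0597 and 0.121 (edgeR). Fads2 was 2.87-fold lower and was the one desaturase with an unadjusted p under 0.05, while Far2 was 2.14-fold higher and Far1 had a fitted fold of 1.04. After adjustment no member was under 0.05 in the quasi-likelihood test of edgeR, a threshold passed by 1 higher and 1 lower gene of all those tested (0.00542% each). DESeq2, run on the same counts, gave Fads2 an adjusted p of 0.00244 and Far2 one of 0.0154, and it called 2401 of all genes tested. At an unadjusted p under 0.05, 1 member was lower, against 12.4% of all genes tested, and 1 was higher, against 12.3%, so the members' count lies near the background. Both also had an absolute log2 fold change over 1, which 3.88% of all genes met downward and 4.97% upward. The fitted change was downward in 8 of 10 members, with a median log2 fold change of -0.56, and in 48.4% of all genes tested, with a median of 0.03.

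**Figure D1:**
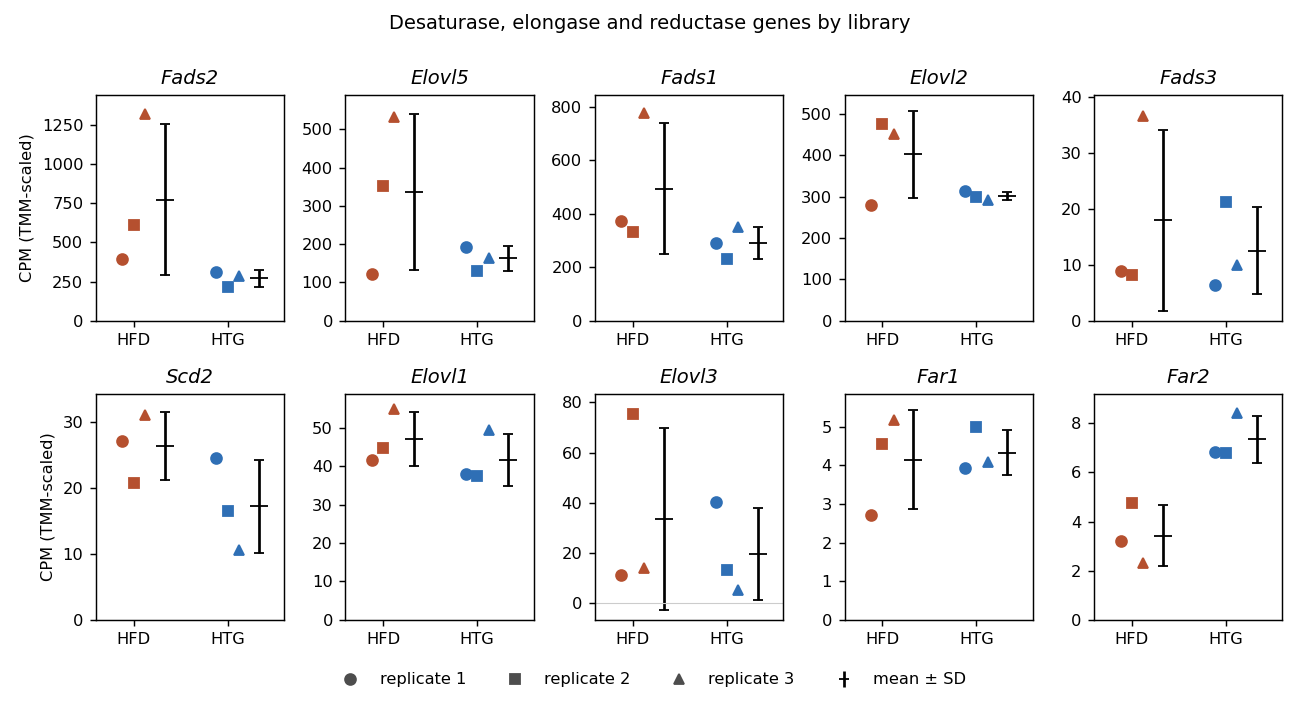
Normalised counts (CPM) of the 10 genes in every library, with HFD in brown and HTG in blue, the marker shape giving the replicate and the black bar the mean ± SD (n = 3); each panel has its own linear axis. Fads2 and Far2 are the genes whose groups do not overlap, and HFD library 3 is the highest library in 7 panels.

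Fads2 (ENSMUSG00000024665, chromosome 19, 10040129 to 10079110, minus strand) encodes the delta-6 desaturase that opens the route. Its level in HFD libraries 1 to 3 was 392, 609 and 1318 CPM, and in HTG libraries 1 to 3 it was 313, 212 and 283 CPM. Every HTG library lay below every HFD library, as in 15.5% of all genes tested, and HFD library 3 held 56.8% of the summed HFD level. The group values were 773 ± 484 and 270 ± 52.0 CPM (SD, n = 3 per group), and the log2 fold change was -1.52 (standard error 0.43, 95% interval -2.49 to -0.54, unadjusted p = 0.00683 and adjusted p = 0.0849 by edgeR). Without HFD library 3, the difference was -0.90 with an unadjusted p of 0.0155 in the same test.

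Elovl5 (ENSMUSG00000032349, chromosome 9, 77824646 to 77891801, plus strand) encodes the elongase that acts on the product of FADS2. HFD libraries 1 to 3 had 123, 353 and 531 CPM of it, and HTG libraries 1 to 3 had 194, 131 and 163 CPM. HFD library 1 was the lowest of all 6, so the groups overlapped although the other HFD libraries were the 2 highest. The log2 fold change was -1.05 (standard error 0.46, 95% interval -2.10 to 0.01, unadjusted p = 0.0509 in edgeR's quasi-likelihood test). It was -0.55 without HFD library 3 (unadjusted p = 0.231) and -1.45 without HFD library 1 (unadjusted p = 0.00151, edgeR).

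Fads1 (ENSMUSG00000010663, chromosome 19, 10160252 to 10174241, plus strand) encodes the delta-5 desaturase that forms arachidonic acid and eicosapentaenoic acid. Levels of 371, 333 and 777 CPM in HFD libraries 1 to 3 stood against 291, 232 and 351 CPM in HTG libraries 1 to 3. The groups overlapped because HTG library 3 lay above HFD library 2, and HFD library 3 was at more than 2-fold the level of either other HFD library. The log2 fold change was -0.76 (standard error 0.35, unadjusted p = 0.0597, edgeR's quasi-likelihood test) and was -0.28 without HFD library 3 (unadjusted p = 0.295, edgeR).

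Elovl2 (ENSMUSG00000021364, chromosome 13, 41335857 to 41373881, minus strand) encodes the elongase of the longest polyunsaturated chains on the way to DHA. HFD libraries 1 to 3 stood at 280, 475 and 452 CPM and HTG libraries 1 to 3 at 313, 300 and 292 CPM. The HTG values lay within 1.07-fold of each other, above HFD library 1 and below the other HFD libraries. The log2 fold change was -0.42 (95% interval -0.97 to 0.14, unadjusted p = 0.121, edgeR's quasi-likelihood test).

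Fads3 (ENSMUSG00000024664, chromosome 19, 10018933 to 10037474), which lies 2654 bases from Fads2 and encodes a desaturase of sphingoid bases, was measured at 8.96, 8.23 and 36.6 CPM in HFD libraries 1 to 3, against 6.46, 21.2 and 9.93 CPM under HTG. One library in each group, HFD library 3 and HTG library 2, stood above the rest. The log2 fold change of Fads3 was -0.52 (unadjusted p = 0.437) and turned to 0.54 without HFD library 3 (edgeR's quasi-likelihood test).

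Scd2 (ENSMUSG00000025203, chromosome 19, 44282113 to 44295303), a stearoyl-CoA desaturase that makes monounsaturated fatty acids and is best known from brain and fat, was at 27.1, 20.7 and 31.0 CPM in HFD libraries 1 to 3, against 24.5, 16.5 and 10.5 CPM in HTG libraries 1 to 3. HTG library 1 lay inside the HFD range. Its log2 fold change was -0.61 (95% interval -1.30 to 0.08, unadjusted p = 0.0759, edgeR's quasi-likelihood test), and -0.998 without HTG library 1 (unadjusted p = 0.00911, edgeR).

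Elovl1 (ENSMUSG00000006390, chromosome 4, 118285290 to 118290150), which encodes the elongase of saturated very long chains used in sphingolipids, was the steadiest desaturase or elongase. It ran from 41.6 to 55.0 CPM in the HFD group and from 37.6 to 49.5 CPM in the HTG group, with a log2 fold change of -0.18 (95% interval -0.61 to 0.25, unadjusted p = 0.372, edgeR). Its last 53 bases overlap Cdc20 on the opposite strand.

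Elovl3 (ENSMUSG00000038754, chromosome 19, 46120336 to 46124133), an elongase whose liver expression is known to depend on sex and time of day, was the most variable member. Its 11.3, 75.4 and 13.8 CPM in HFD libraries 1 to 3 and 40.1, 13.1 and 5.10 CPM in HTG libraries 1 to 3 spanned a 14.8-fold range. The 2 highest libraries, HFD library 2 and HTG library 1, belonged to different groups. The log2 fold change was -0.78 (95% interval -2.76 to 1.20, unadjusted p = 0.392) and became 0.64 without HFD library 2 (edgeR's quasi-likelihood test).

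**Figure D2:**
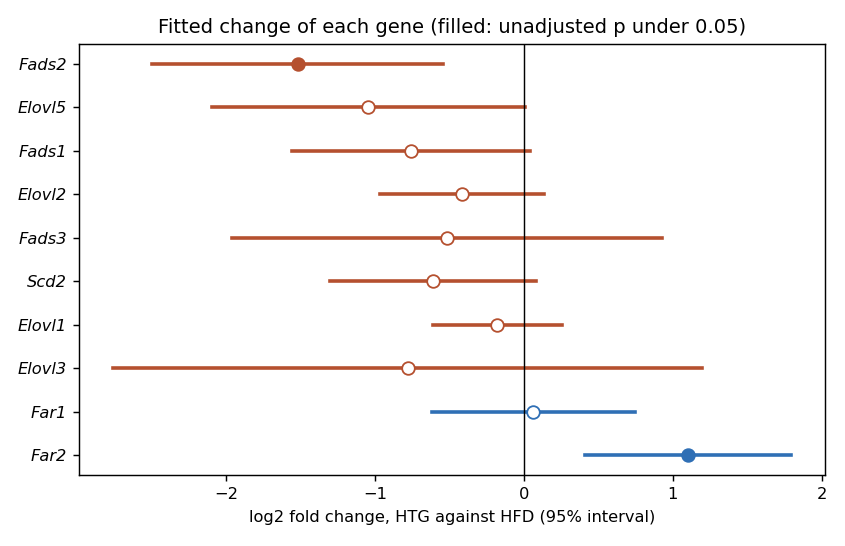
Log2 fold change of each gene, HTG against HFD, with its 95% interval from edgeR's quasi-likelihood fit over all genes tested; filled points had an unadjusted p under 0.05. The intervals of Fads2 and Far2 exclude 0, and that of Elovl3 is the widest.

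The reductases are paralogs that make the same class of product: FAR1 supplies most fatty alcohol for plasmalogens, and FAR2 is known from skin and its wax glands. Far2 (ENSMUSG00000030303, chromosome 6, 147948757 to 148078347, plus strand) was counted 218, 317 and 166 times in HFD libraries 1 to 3 and 531, 662 and 395 times in HTG libraries 1 to 3. These correspond to 3.20, 4.75 and 2.31 CPM against 6.82, 6.77 and 8.43 CPM, and the lowest HTG library stood above the highest HFD library, as in 16.5% of all genes tested. The log2 fold change was 1.10 (standard error 0.30, 95% interval 0.41 to 1.79, unadjusted p = 0.00615 and adjusted p = 0.0823 by edgeR). With each library left out in turn it stayed between 0.88 and 1.41, with an unadjusted p of at most 0.0222 (edgeR).

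Far2 was a low gene, with 42 to 166 fragments per library if 4 counts are taken as 1 fragment. No Far2 count was a multiple of 4, so that reading is rough for this gene. On it, the 41.5 fragments in HFD library 3 gave an approximate Poisson 95% interval of 1.66 to 3.13 CPM. The 98.75 fragments in HTG library 3 gave 6.85 to 10.3 CPM. These intervals cover counting error only. The antisense gene Far2os1, inside the span of Far2 on the opposite strand, had 4 counts over all libraries.

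Far1 (ENSMUSG00000030759, chromosome 7, 113113041 to 113170718, plus strand) was at 2.72, 4.54 and 5.18 CPM in HFD libraries 1 to 3, against 3.93, 4.98 and 4.08 CPM in HTG libraries 1 to 3. The HTG values lay inside the HFD range, and the log2 fold change was 0.06 (95% interval -0.62 to 0.75, unadjusted p = 0.838, edgeR). That interval leaves room for a change of the size fitted for Scd2 in either direction. The antisense gene Far1os was at 0 in every library.

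Per transcript length, Fads2, Fads1, Elovl2 and Elovl5 were the highest members in the HFD group. On the FPKM scale, which divides by length and library size, the HFD means were 228 ± 149 for Fads2, 100.1 ± 52.7 for Fads1, 97.4 ± 23.1 for Elovl2 and 91.8 ± 57.4 for Elovl5 (SD, n = 3). Neighbours among these 4 overlapped, and the lowest Elovl5 value, 35.0 FPKM, still lay above the highest Elovl1 value, 20.1 FPKM. Elovl1 and Elovl3 followed with 16.7 ± 2.87 and 15.7 ± 16.3 FPKM, and their ranges overlapped. Scd2 and Fads3 were at 4.68 ± 1.13 and 4.64 ± 4.30 FPKM, and Far1 and Far2 at 0.49 ± 0.15 and 0.45 ± 0.14 FPKM (SD, n = 3). The ranges of Elovl3 and Fads3 overlapped. In the HTG group the order began with Fads2 at 76.2 ± 11.9, Elovl2 at 71.3 ± 6.42, Fads1 at 56.3 ± 7.39 and Elovl5 at 43.1 ± 7.30 FPKM (SD, n = 3). Elovl2 lay above Fads1 in all 3 HTG libraries and in 1 of 3 HFD libraries. Far2 lay above Far1 in all 3 HTG libraries, at 0.93 ± 0.07 against 0.50 ± 0.10 FPKM, and also in HFD libraries 1 and 2.

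Ratios within a library do not depend on the scaling between libraries. Far1 relative to Far2 was 0.75, 0.86 and 2.03 by FPKM in HFD libraries 1 to 3, against 0.52, 0.67 and 0.44 in HTG libraries 1 to 3. Every HTG ratio was below every HFD ratio, and the mean log2 ratio was 1.04 lower in the HTG group (HTG minus HFD -1.04, exact two-sided permutation test, p = 0.1, the smallest that 3 against 3 allow). Fads1 relative to Fads2 was 0.65, 0.37 and 0.40 under HFD, against 0.64, 0.75 and 0.85 under HTG. HFD library 1 fell inside the HTG range, and the log2 difference of 0.68 had an exact permutation p of 0.2. Elovl5 relative to Elovl2 overlapped widely, with a log2 difference of -0.45 (exact permutation p = 0.4). Adjusted over these 3 ratios by Benjamini-Hochberg, the exact permutation p-values were 0.3, 0.3 and 0.4.

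**Figure D3:**
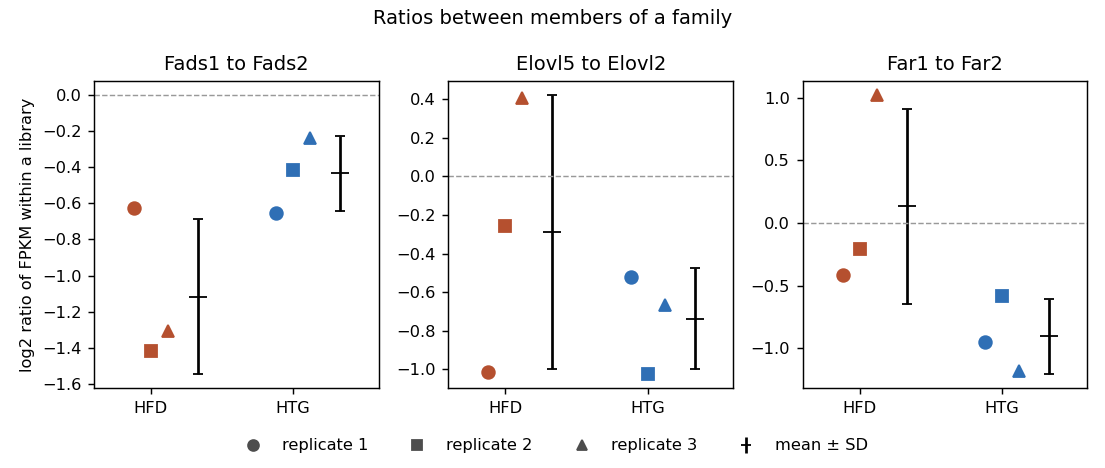
Log2 ratio of FPKM values between paired genes within each library (HFD brown, HTG blue, marker shape by replicate, bar mean ± SD, n = 3; each panel has its own axis, and the dashed line marks equal levels). The Far1 to Far2 ratios of the groups do not overlap, while the other ratios do.

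HFD library 3 was the highest library in 7 of 10 members, Fads1, Fads2, Fads3, Scd2, Elovl1, Elovl5 and Far1, and the lowest in Far2. It was the highest in 19.1% of all genes tested. Over the 6 libraries, the log2 levels of Fads2 had a Pearson correlation of 0.91 with Fads1 and of 0.90 with Elovl5, and Elovl2 had one of 0.94 with Elovl5. With the group means removed, these were 0.86, 0.92 and 0.92. They were the largest over the 6 libraries among all member pairs. The other pairs of the route were lower, at 0.82 for Fads2 with Elovl2, 0.74 for Fads1 with Elovl5 and 0.55 for Fads1 with Elovl2. With the group means removed, those were 0.69, 0.62 and 0.27. Fads1 with Elovl1, which is outside the route, had 0.86, and 0.84 with the group means removed. All these correlations describe 6 libraries that share their scaling, and HFD library 3 is the high point of Fads1, Fads2 and Elovl5. The genes most like Far2 over the 6 libraries, among 14369 others with a mean of at least 50 counts, were Pign, Sap18b, Gm16973, Hsf1 and Klhl23, with Pearson correlations between 0.993 and 0.998. These are the highest of 14369 correlations over 6 libraries, so values this near 1 can arise from the search alone. A link of these genes with Far2 was not tested.

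Of the other desaturases and elongases tested, Scd1, Elovl6 and Fads6 were highest in HFD library 3. Degs1, Degs2 and Elovl7 were not. Scd1, the main stearoyl-CoA desaturase of liver, was at 2634, 712 and 14092 CPM in HFD libraries 1 to 3, against 959, 1066 and 3056 CPM in HTG libraries 1 to 3. Elovl6, which elongates palmitate, was at 26.1, 23.4 and 291 CPM under HFD, against 10.1, 34.8 and 67.3 CPM under HTG. In both genes HFD library 3 was at least 4-fold above any other library, and the groups overlapped (unadjusted p = 0.0978 and 0.152, edgeR's quasi-likelihood test). Srebf1, which encodes SREBP-1, was at 155, 87.3 and 393 CPM under HFD, against 244, 597 and 261 CPM under HTG. Its highest library, HTG library 2, had the lowest Fads1 and Fads2 levels of all 6, and its next highest, HFD library 3, had the highest. A link between Srebf1 and these genes was not tested. Mlxipl, which encodes the carbohydrate-sensing factor ChREBP, had 325, 287 and 461 CPM against 604, 1075 and 939 CPM, without overlap of the groups (log2 fold change 1.29, standard error 0.29, adjusted p = 0.0613 by edgeR).

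**Figure D4:**
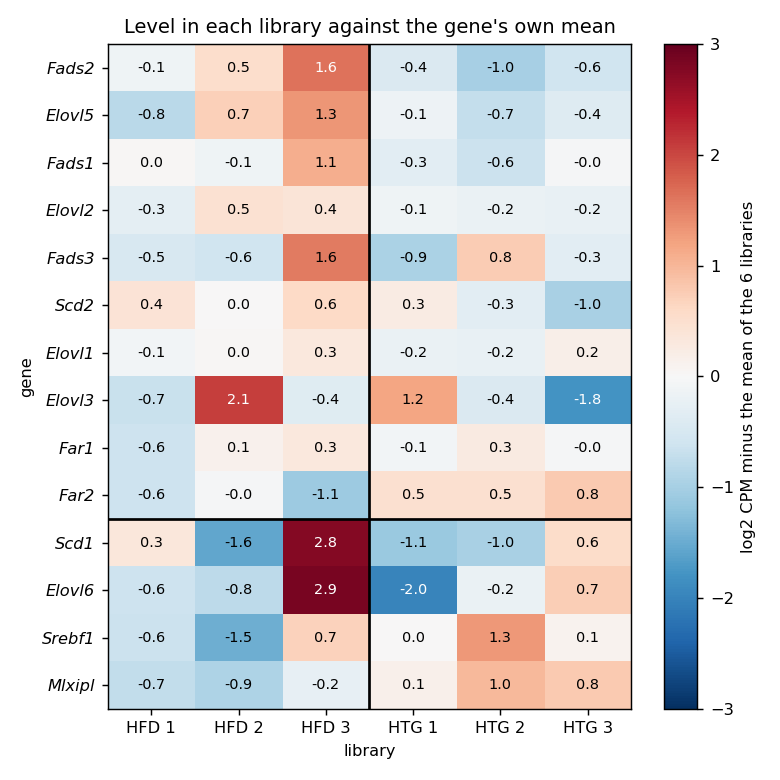
Log2 CPM of each gene in each library minus that gene's mean over the 6 libraries; the 10 members stand above the black line, and Scd1, Elovl6, Srebf1 and Mlxipl below it. HFD library 3 is high for Fads1, Fads2, Fads3, Elovl5, Scd1 and Elovl6, and Far2 is above its mean in the HTG libraries alone.

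A further 63 symbols of the same pathways were looked up, of which 62 were in the table and 57 were tested. At an unadjusted p under 0.05, 20 were lower in the HTG group and 2 were higher, against 12.4% and 12.3% of all genes tested (edgeR). After adjustment none was under 0.05 in edgeR. DESeq2 called 11 lower and 2 higher, and 2401 of all 18455 genes tested in either direction. The median log2 fold change of the 57 was -0.48. The counts of the smaller lists below are to be read against those same shares, and no list was tested. Among the cytochrome b5 genes and their reductases, listed because some donate electrons to desaturases, 2 of 6 were lower. These were Cyb5b, the outer mitochondrial cytochrome b5, with 328 ± 100.4 against 142 ± 20.7 CPM, and the reductase Cyb5r4, with 24.0 ± 3.13 against 11.9 ± 3.33 CPM (SD, n = 3 per group). Cyb5a, the cytochrome b5 of the endoplasmic reticulum that serves these desaturases, had a log2 fold change of 0.15 (unadjusted p = 0.47, edgeR). The reductase Cyb5r3 had one of -0.48 (unadjusted p = 0.206, edgeR). In the rest of the elongation cycle 2 of 6 tested genes were lower, the ketoacyl reductase Hsd17b12 (-0.84) and the dehydratase Hacd3 (-0.72). Of the other desaturases 2 of 4 were lower, with log2 fold changes of -1.01 for Degs1, which introduces the double bond of ceramide, and -0.55 for Fads6.

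Of the list of ether lipid steps after fatty alcohol synthesis, 4 of 7 tested genes were lower at an unadjusted p under 0.05 (edgeR's quasi-likelihood test). They were the plasmalogen desaturase Peds1 (log2 fold change -0.56), the peroxisomal import receptors Pex5 (-0.68) and Pex7 (-0.83), and Gnpat (-0.41). Gnpat met the threshold narrowly (unadjusted p = 0.04997, edgeR), and its groups overlapped. Agps did not meet it (-0.30, unadjusted p = 0.170, edgeR). The peroxisomal genes of the last step to DHA had 3 of 8 lower, among them the transporter Abcd3, with 455 ± 171 against 166 ± 54.9 CPM (SD, n = 3 per group). Of the genes that activate polyunsaturated fatty acids or place them in phospholipids, 2 of 6 were lower, and of the regulators 4 of 13 were lower, Insig2 with a log2 fold change of -1.25, and 1 was higher, Mlxipl. Around the Fads cluster, 1 of 5 tested neighbours was higher, the small membrane protein gene Tmem258 (10.8 ± 2.23 against 22.8 ± 3.58 CPM, SD, n = 3 per group), and 1 was lower, the ferritin gene Fth1 (-0.83). The list of other elongases had 0 of 2 tested genes at that threshold.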

How the data were processed

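Liver RNA of 6 libraries, 3 HFD and 3 HTG, grouped by their titles, was analysed from 1 table. Per the file headers the authors deposited an estimated count and an FPKM value per gene and library; the counts were whole numbers, not scaled between libraries, and the authors scaled FPKM by transcript length and library size. The submitters' processing notes name HISAT2, StringTie, SAMtools and the rat build mRatBN7.2, while the rows are mouse Ensembl genes, so coordinates are as listed, with no build. Whether counting used the strand is not given in the sources used here. Low counts came in steps, with 6450 values of 4 against 2549 of 3 and 1757 of 5.

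Members and lists were chosen with earlier results of these data known. The rule for named genes was all 10 members, Scd1, Elovl6, Srebf1, companion genes past both limits (unadjusted p under 0.05, log2 change over 1 either way), and the 5 genes most like the member with the smallest p. Other named genes, such as Cyb5a, Hsd17b12, Hacd3, Fads6, Peds1, Pex5, Pex7 and Fth1, were picked from the companion lists after their values were seen. The counts were tested with edgeR 4.0.16 (TMM, filterByExpr, glmQLFit and glmQLFTest, Benjamini-Hochberg over the genes tested) in R 4.3.3, and ratios by exact permutation. The design text names 6 animals, and each library was taken as 1 animal. On simulated counts for this comparison over 17788 genes, 89 genes were changed 2-fold and 102 were changed 4-fold. Of these, 70.8% and 93.1% had an unadjusted p under 0.05 in the right direction, and 10.1% and 60.8% had an adjusted p under 0.05. The adjusted shares depend on how many genes change, which was not matched to these data. They therefore do not give the sensitivity of the real comparison after adjustment. Alternatives were DESeq2 1.42.0, other filters and scalings, limma 3.58.1 on log2(FPKM + 0.1) or log2(FPKM + 1), counts divided by 4, the replicate number as a block, and each library left out. RefSeq sequences supplied for reference were of rat and were not used here.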

Additional observations from a re-analysis of the deposited data

How the results depend on the processing

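The direction of 7 members held in every alternative run. The exceptions were Fads3 without HFD library 3 (0.54), Elovl3 without HFD library 2 (0.64), and Far1 without HFD library 1 (-0.17) or HTG library 2 (-0.05). With each library left out, these 3 ran from -1.13 to 0.54, from -1.89 to 0.64 and from -0.17 to 0.25. Fads2 and Far2 had an unadjusted p under 0.05 in every alternative that fitted them, 16 and 14. Their adjusted p ran from 0.00244 to 0.261 and from 0.0154 to 0.218, and DESeq2 put both under 0.05, 1 member higher and 1 lower. The number of members lower at an unadjusted p under 0.05, 1 in edgeR's quasi-likelihood test, was 3 with DESeq2 and without a filter, and 2 with at least 10 counts in every library and with DESeq2's size factors. Of all genes, in both directions, 4563 of 18455 met that threshold in the main fit, 4819 with DESeq2 and 4562 with its size factors. They were 5105 of 29763 without a filter and 4349 of 15454 with at least 10 counts in every library. Both limma fits with a mean FPKM of at least 1 had 0 members higher, since Far1 and Far2 are under that mean. Leaving out each library gave 1 to 4 members lower and 1 higher at an unadjusted p under 0.05 and 0 either way at an adjusted p under 0.05. Without HFD library 1 the 4 lower members were Fads1, Fads2, Elovl2 and Elovl5, and 4322 of all 19391 genes had an unadjusted p under 0.05 in either direction (edgeR). Over the runs that left out 1 library, that number ran from 3086 without HTG library 2 to 4958 without HTG library 1.

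Companion genes at an adjusted p under 0.05 were 0 each way by edgeR, against 2 of all genes. They were 2 higher and 11 lower with DESeq2 (2401 of all). With at least 10 counts in every library they were 2 higher and 3 lower (684 of all). Leaving out each library gave 0 to 2 higher and 0 to 6 lower, with 2 and 6 without HTG library 1 (653 of all). At an unadjusted p under 0.05 these runs gave 10 to 19 lower and 2 to 3 higher. Lower ones were 11 without HTG library 2 and 10 without HTG library 3. The difference in log2 ratio ran from 0.53 to 0.93 for Fads1 to Fads2, from -0.81 to -0.10 for Elovl5 to Elovl2, and from -1.31 to -0.59 for Far1 to Far2.

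The replicate block gave 2 members lower at an unadjusted p under 0.05, Fads1 and Fads2, and 3867 of all 18455 genes met that threshold in either direction. Deviations of same-numbered libraries correlated at -0.08, -0.07 and 0.10, so the numbers were not read as pairs. Where not named, the cause was not tested. Far2 had the lowest mean FPKM of the members in the HFD group, although Far1 lay above it in HFD library 3 alone. The standard error of Far2, 0.30, was below that of Fads2, 0.43.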
